A study of Mus musculus with 8 samples.

Results

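The genes described here encode 10 components of leukemia inhibitory factor (LIF) and interleukin-11 signaling, chosen by name from the 21951 protein-coding genes of the GENCODE annotation. They are the ligands *Lif*, *Il6* and *Il11*, the receptor chains *Lifr*, *Il11ra1*, *Osmr* and *Il6st*, the kinase *Jak1*, the transcription factor *Stat3* and the inhibitor *Socs3*. Peaks within 2000 bp of any annotated transcription start site (TSS) of a gene are called promoter peaks, and other peaks inside the gene are called gene-body peaks. Chromatin immunocleavage sequencing (ChIC-Seq), in which an antibody brings a micrococcal nuclease fusion to chromatin and the cut fragments are sequenced, was performed with antibodies to PBRM1 and BRG1. PBRM1 is the BAF180 subunit of SWI/SNF complexes, and BRG1 is their ATPase, encoded by *Smarca4*. The cells were mouse uterine stromal cells (mUSCs) of WT females aged 8 to 12 weeks on D4, kept briefly in culture after the horns of 5 to 10 pseudopregnant uteri had been digested, with 3 replicates per antibody. No treatment or mutation separated the samples, and the labels give the antibody as the only difference between the groups. The labels give 50000 cells and 5 minutes of formaldehyde fixation per library, and 2 IgG libraries were not analysed here. Since the cells were pooled, a peak found in few cells and a weak peak found in many cannot be told apart.

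LIF, interleukin-6 and interleukin-11 each bind a receptor complex that contains gp130, the shared chain encoded by *Il6st*. JAK kinases on the receptor phosphorylate STAT3, which enters the nucleus, binds DNA as a dimer and activates target genes, among them *Socs3*, whose product shuts the receptor down. In the mouse uterus LIF from the glands is required for implantation on D4, and interleukin-11 signaling in the stroma is required for decidualization.

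The replicates held 8868777 to 16505239 fragments and 21912 to 26363 peaks for PBRM1, and 11506964 to 14595089 fragments and 36656 to 40610 peaks for BRG1. The pooled lists, which the authors called on the joined fragments of the 3 replicates, held 55119 PBRM1 and 82669 BRG1 peaks. The fragment length taken by the peak caller was 177 to 188 bp in the PBRM1 replicates and 149 to 154 bp in the BRG1 replicates. Its part in the differences between the antibodies was not tested. Each fold enrichment below is the authors' ratio of a peak to the local background of its own library, called without a control library. Among markers of the cells, promoter peaks were found in all 6 replicates for 5 of 8 stromal genes (*Vim*, *Pdgfra*, *Pdgfrb*, *Pgr* and *Hand2*). They were found in all 6 for 0 of 8 epithelial genes and for 51.9% of all protein-coding genes. In all 3 BRG1 replicates, all 8 stromal genes and 4 of 8 epithelial genes had one, against 61.4% of protein-coding genes. The leukocyte genes *Ptprc*, *Cd3e* and *Csf1r* had no promoter peak in any list. Of the vessel and muscle markers, 1 of 4 endothelial genes (*Kdr*) and 0 of 2 smooth muscle genes had one in all 6. In the pooled PBRM1 list all 8 epithelial genes had a promoter peak, with fold enrichments of 2.95 (*Foxa2*) to 4.90 (*Krt18*), a range like that of the 8 stromal genes, 3.26 (*Col1a1*) to 4.89 (*Vim*). In the pooled BRG1 list all 8 epithelial genes also had one, from 3.50 (*Cldn4*) to 7.97 (*Cdh1*). The 8 stromal genes ran from 3.85 (*Col1a1*) to 10.0 (*Hand2*) there. The part of epithelial cells in the values below was not tested.

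All 10 genes had a promoter peak in the pooled PBRM1 list and in the pooled BRG1 list, where 68.7% and 72.1% of the protein-coding genes had one. In the replicates, 9 of the 10 genes had a promoter peak in all 3 PBRM1 replicates (52.2% of protein-coding genes) and all 10 in all 3 BRG1 replicates (61.4%). The gene without a peak was *Il6*, in PBRM1 replicate 3, so that 9 of 10 had a promoter peak in all 6 replicates, against 51.9% of protein-coding genes. With peaks of a −log10 q of at least 5, the last count fell to 5 of 10, against 42.5% of protein-coding genes, and *Lif*, *Lifr*, *Il11* and *Osmr* were lost besides *Il6*. Ordered by the mean fold enrichment of their strongest promoter peak, the genes ran from *Stat3* and *Jak1* at the top to *Lif* at the bottom with either antibody. Neighbours in this order overlapped between replicates, except that *Lif* lay below *Il11ra1* in every PBRM1 replicate and *Jak1* above *Il6st* in every BRG1 replicate.

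**Figure D1:**
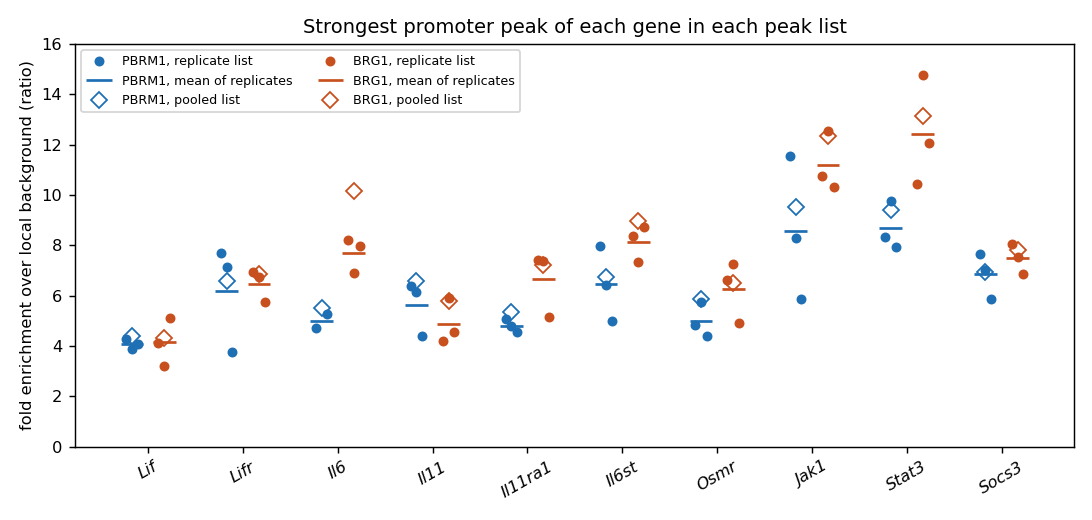
Fold enrichment (ratio to the local background, y axis) of the strongest promoter peak of each gene (x axis) in the 3 replicate lists of PBRM1 (blue points) and BRG1 (orange points), their mean (bars) and the pooled lists (diamonds). *Stat3* in BRG1 replicate 2 was the highest at 14.8, *Lif* stayed at or under 5.09 in every list, and *Il6* has 2 PBRM1 points because replicate 3 had no peak.

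The position of the peaks separated the genes. An annotated TSS lay inside a peak in all 6 replicates for 5 of the 10 genes (*Il11ra1*, *Il6st*, *Jak1*, *Stat3* and *Socs3*), against 39.4% of all protein-coding genes. For the 3 ligands and for *Lifr* and *Osmr* this was not so. In the pooled lists a TSS lay inside a peak for 9 of 10 genes with either antibody (59.2% of protein-coding genes for PBRM1 and 63.5% for BRG1), the exception being *Il11*. The outermost TSS, the most upstream start of any annotated transcript of the gene, lay inside a pooled PBRM1 peak for 4 genes (*Il6st*, *Jak1*, *Stat3* and *Socs3*). It lay inside a pooled BRG1 peak for these and *Osmr*. None of the outermost starts of *Lif*, *Il6* and *Il11* was covered in any of the 8 lists.

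*Lif*, the cytokine that starts implantation, spans chr11:4257557-4272514 (GRCm38) on the plus strand, and its peaks lay away from its first exon. At the outermost TSS no list had a peak. The first promoter site, chr11:4258696-4259185, lies in the first intron with a pooled summit 1282 bp (PBRM1) and 1288 bp (BRG1) downstream of that TSS. Its fold enrichment was 3.91, 3.87 and 4.07 in PBRM1 replicates 1, 2 and 3, and 3.86 and 4.18 in BRG1 replicates 1 and 3, with no peak in BRG1 replicate 2. A further site, chr11:4266512-4267140, covers the internal TSS at 4266796, from which a curated RefSeq transcript also starts. There PBRM1 replicates 1 and 2 had fold enrichments of 4.26 and 3.30, PBRM1 replicate 3 had no peak, and BRG1 had 4.13, 3.20 and 5.09. Thus neither site was found in all 6 replicates, and *Lif* counted among the 9 genes through the intronic site for PBRM1 and the internal start for BRG1. A gene-body site between them, with a pooled BRG1 summit at −2591 bp from the internal TSS, was called in BRG1 replicates 1 and 2 (5.64 and 3.02) and in no PBRM1 replicate, and the pooled peaks of both antibodies reach predicted RefSeq starts at 4264277 and 4264279. A pair of stretches of *Lif* is printed 5′ to 3′ to set the start without a peak beside the start with one. The upper is chr11:4257307-4257556, just before the outermost TSS, with a match to the AP-1 string TGANTCA at −217 in capitals. The lower is chr11:4266599-4266795, just before the internal TSS, wholly inside both pooled peaks, with a GC box (GGGCGG, here on the other strand) at −90 in capitals. The lower stretch begins directly after annotated untranslated bases of a *Lif* exon, and bases that code for protein were not left out of it. In G and C content the upper and lower stretches measure 62.8% and 77.2%.
Lif outermost start: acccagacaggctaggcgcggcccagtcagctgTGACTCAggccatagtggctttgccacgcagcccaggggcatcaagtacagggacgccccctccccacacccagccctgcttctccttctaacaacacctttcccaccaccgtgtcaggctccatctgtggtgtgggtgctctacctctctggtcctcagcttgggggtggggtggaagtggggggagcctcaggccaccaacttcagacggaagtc
Lif internal start: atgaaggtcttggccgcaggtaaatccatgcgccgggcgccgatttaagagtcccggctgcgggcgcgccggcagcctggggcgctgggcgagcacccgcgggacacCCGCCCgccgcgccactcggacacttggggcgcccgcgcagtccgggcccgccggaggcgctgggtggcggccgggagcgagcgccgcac

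*Il6*, the cytokine of the acute-phase response, had a narrow peak just inside the gene (chr5:30013114-30019981, plus strand). The union of its peaks is chr5:30013144-30013498, and the pooled BRG1 summit lies 178 bp downstream of the outermost TSS, in the first intron. It also lies 29 bp upstream of an inner protein-coding TSS at 30013321. That inner TSS lay inside the peak in every list except PBRM1 replicate 3, which had no peak. BRG1 replicates 1, 2 and 3 had fold enrichments of 8.20, 6.92 and 7.96, and PBRM1 replicates 1 and 2 had 4.72 and 5.26. The BRG1 values were all above the PBRM1 values, but the fold enrichments of different libraries are not on a common scale. Without PBRM1 replicate 3, the percentile of the *Il6* peak among the peaks of its list was 35.3 points higher in BRG1 (exact p = 0.1 for 2 against 3 replicates, the smallest possible). With that replicate left out, 47.3% of 12294 genes had a higher percentile in every BRG1 replicate. In the pooled lists the *Il6* peak reached 5.50 for PBRM1 and 10.2 for BRG1, with widths of 297 and 355 bp, the narrowest of the strongest promoter peaks of the 10 genes in either list. Every peak of *Il6* lay downstream of the outermost TSS, and the 250 bp before it, chr5:30012864-30013113, printed here for that reason, held no pooled peak. Capitals mark a match to the AP-1 string TGANTCA at −249.
Il6 upstream: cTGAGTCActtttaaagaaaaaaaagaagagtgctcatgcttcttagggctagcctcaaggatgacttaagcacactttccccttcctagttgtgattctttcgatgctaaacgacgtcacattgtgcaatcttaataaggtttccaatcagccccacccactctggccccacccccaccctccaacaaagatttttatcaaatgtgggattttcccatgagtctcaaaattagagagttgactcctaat

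*Il11*, the cytokine of decidualization, had a peak in all 6 replicates that overlapped no annotated GENCODE TSS. The gene spans chr7:4772373-4782859 on the minus strand, and its peak site, chr7:4776740-4777611, lies in an intron, with a pooled summit 854 bp (PBRM1) and 769 bp (BRG1) downstream of the nearer TSS at 4778141. From the outermost TSS the PBRM1 summit lies 5572 bp downstream. Fold enrichments were 6.38, 6.14 and 4.40 for PBRM1 replicates 1, 2 and 3, and 4.20, 5.91 and 4.56 for BRG1, so that the groups overlapped. With a promoter distance of 500 bp *Il11* had no promoter peak in either pooled list. RefSeq holds predicted, not curated, transcripts that start at 4777439 and 4777261, and both positions lay inside the pooled peaks, 67 bp and 26 bp from the nearer pooled summit. The 251 bp around the PBRM1 summit, chr7:4777162-4777412, are printed on the minus strand because this is where both antibodies peaked. Capitals mark a CCAAT box (here as ATTGG) and a GC box, at 735 bp and 757 bp downstream of the nearer TSS, and 67.3% of the bases are G or C.
Il11 intron: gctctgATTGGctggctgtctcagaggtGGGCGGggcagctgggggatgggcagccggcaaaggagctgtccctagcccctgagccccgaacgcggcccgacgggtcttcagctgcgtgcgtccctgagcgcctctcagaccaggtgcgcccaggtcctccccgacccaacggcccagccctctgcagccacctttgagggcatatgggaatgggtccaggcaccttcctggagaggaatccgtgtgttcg

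**Figure D2:**
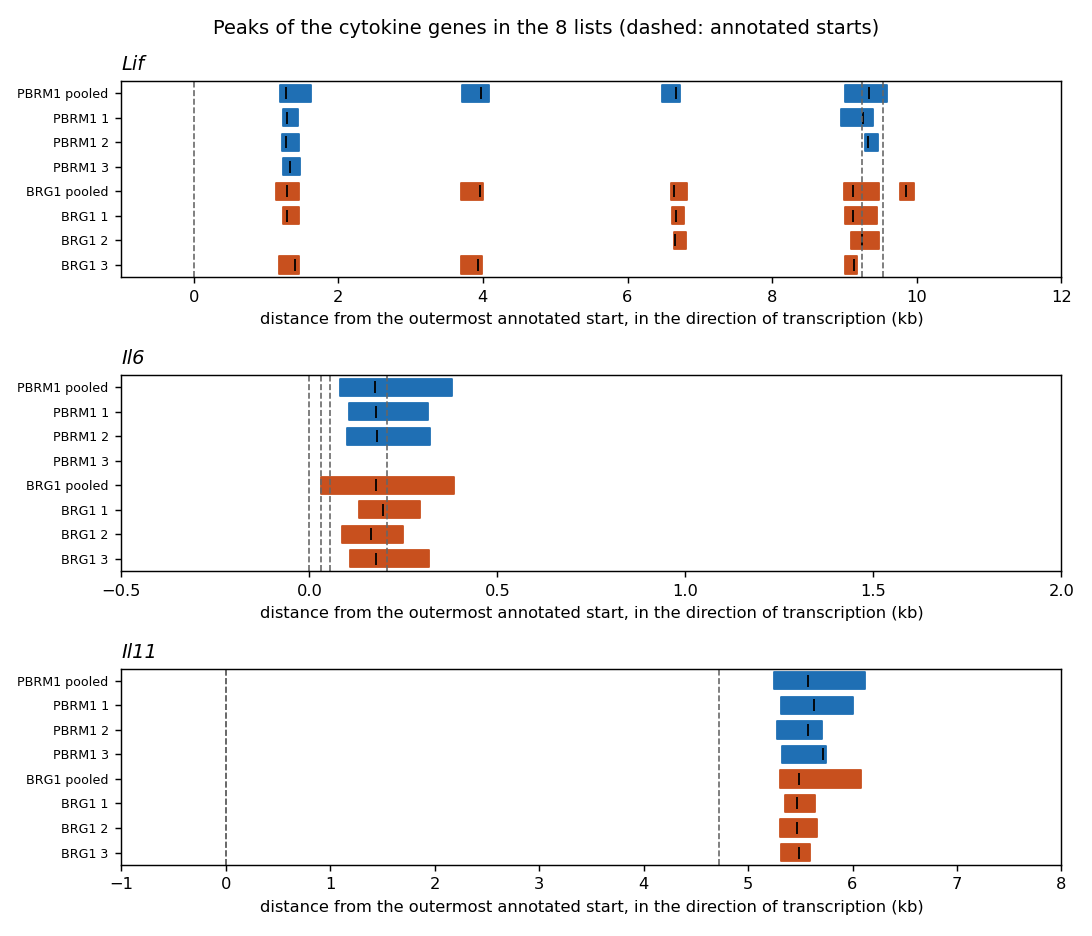
Strongest peak of each site (boxes, black tick at the summit) of *Lif*, *Il6* and *Il11* in the 2 pooled and 6 replicate lists (rows, PBRM1 blue and BRG1 orange) against the distance in kb from the outermost annotated TSS, with annotated starts dashed. *Il11* had 2 peaks at its site in BRG1 replicates 1 and 3, of which the stronger is drawn. The outermost start is bare in each gene, *Il6* peaks sit around 178 bp inside the gene, and all *Il11* peaks lie beyond the inner start.

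Among the receptors, *Lifr* encodes the chain that binds LIF, which other cytokines of the family also use, and spans chr15:7090614-7197489 on the plus strand. Its main site, chr15:7128933-7130070, sits at a group of internal starts around 7129559 and not at the outermost TSS. PBRM1 fold enrichments there were 7.69, 7.14 and 3.75, with replicate 3 low, and BRG1 had 6.93, 6.73 and 5.74. The groups overlapped. Near the outermost TSS, 1828 bp downstream of it, a peak was called in BRG1 replicates 2 and 3 (6.31 and 5.10) and in no PBRM1 replicate. Its pooled fold enrichment was 6.96 for BRG1 and 2.85 for PBRM1.

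*Osmr*, which encodes the oncostatin M chain that pairs with gp130, had a wide peak site over its 5′ end (chr15:6873384-6875078, minus strand). The pooled BRG1 peak was 1662 bp wide, and the PBRM1 peak of 1164 bp lay wholly within it. Fold enrichments were 4.82, 5.74 and 4.40 for PBRM1 and 6.61, 7.24 and 4.90 for BRG1. BRG1 replicate 3 lay among the PBRM1 values.

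*Il6st*, the gp130 gene, had its peak over the TSS in every list. The site, chr13:112463567-112464570, covers 4 annotated starts, and the pooled summits lay 227 bp (PBRM1) and 67 bp (BRG1) upstream of the TSS. PBRM1 replicates 1, 2 and 3 had fold enrichments of 7.96, 6.44 and 5.00, and BRG1 replicates 8.36, 7.32 and 8.73. The 300 bp before the TSS, chr13:112463770-112464069, were wholly inside both pooled peaks and are printed as a promoter with peaks in all 8 lists, with 2 CCAAT boxes, at −65 and −33, in capitals.
Il6st upstream: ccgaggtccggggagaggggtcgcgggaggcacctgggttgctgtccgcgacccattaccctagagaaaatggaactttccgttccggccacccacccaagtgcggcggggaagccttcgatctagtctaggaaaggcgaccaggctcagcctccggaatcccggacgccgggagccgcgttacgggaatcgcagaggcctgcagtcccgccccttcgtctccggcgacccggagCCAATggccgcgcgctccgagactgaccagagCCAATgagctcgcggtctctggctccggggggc

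*Il11ra1* encodes the chain that binds interleukin-11. Its peak site chr4:41760297-41760875 covers the protein-coding TSS at 41760454. The pooled summits lay within 5 bp of other starts, at 41760512 (PBRM1) and 41760498 (BRG1), which belong to transcripts annotated as retained introns. Fold enrichments were 5.07, 4.78 and 4.55 for PBRM1 and 7.41, 7.39 and 5.15 for BRG1, and every BRG1 value was above every PBRM1 value. By fold enrichment, 41.0% of 11388 genes with a promoter peak in all 6 replicates were higher in every BRG1 replicate. GENCODE also gives *Il11ra1* a transcript that begins far upstream, at 41699989, where no list had a peak. That long span, chr4:41699989-41769474, contains other genes, and 5 of its 7 pooled PBRM1 and 6 of its 7 pooled BRG1 gene-body peaks lay within 2000 bp of a start of one of them.

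*Jak1*, the kinase that gp130 binds, and *Stat3*, the transcription factor it activates, had the strongest promoter peaks by fold enrichment. At *Jak1* (chr4:101264427-101265438, minus strand) PBRM1 replicates had 11.6, 8.30 and 5.87 and BRG1 replicates had 10.8, 12.5 and 10.3, so that PBRM1 replicate 1 lay among the BRG1 values. The *Jak1* summits of both pooled lists fell on the same base, 15 bp downstream of a start. At *Stat3* (chr11:100939071-100940036, minus strand) PBRM1 replicates had 8.33, 9.76 and 7.94 and BRG1 replicates had 10.4, 14.8 and 12.1. The groups did not overlap, with BRG1 the higher, as for the 41.0% of genes given above. By −log10 q the *Stat3* peak ranked 81 of the 82669 peaks in the pooled BRG1 list and 576 of 55119 in the pooled PBRM1 list. *Jak1* ranked 1867 and 2133, and *Lif* ranked 20037 and 16962, in the same order. The 300 bp before the *Stat3* TSS, chr11:100939541-100939840, are printed because they lie in the strongest of these peaks by −log10 q. A CREB string (TGACGTCA) at −285 is in capitals, and no STAT string was found within the peak.
Stat3 upstream: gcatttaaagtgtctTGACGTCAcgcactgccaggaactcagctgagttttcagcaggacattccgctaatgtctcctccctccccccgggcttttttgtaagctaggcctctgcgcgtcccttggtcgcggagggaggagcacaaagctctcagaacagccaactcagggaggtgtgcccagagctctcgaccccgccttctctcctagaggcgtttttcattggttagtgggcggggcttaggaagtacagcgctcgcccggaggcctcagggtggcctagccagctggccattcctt

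*Socs3*, the STAT3-induced inhibitor of gp130 signaling, had a broad peak across its 5′ end (chr11:117968786-117970113, minus strand). The pooled peaks were 1312 bp (PBRM1) and 1273 bp (BRG1) wide. Fold enrichments were 7.67, 7.03 and 5.87 for PBRM1 and 8.04, 7.55 and 6.86 for BRG1, and the groups overlapped. In the pooled lists the peak ranked 1122 by −log10 q for PBRM1 and 1350 for BRG1. The STAT string TTCNNNGAA, the spacing that a STAT dimer reads, matched at 2 positions under this peak. The first is printed in the 300 bp before the RefSeq TSS, chr11:117969367-117969666, at −154, and the second in the 27 bp at chr11:117969230-117969256, where it begins 119 bp downstream of that TSS. The protein-coding GENCODE transcript starts further downstream, at 117969186, so that both strings lie upstream of that start. Both stretches lie wholly inside both pooled peaks, and capitals mark the STAT string.
Socs3 upstream: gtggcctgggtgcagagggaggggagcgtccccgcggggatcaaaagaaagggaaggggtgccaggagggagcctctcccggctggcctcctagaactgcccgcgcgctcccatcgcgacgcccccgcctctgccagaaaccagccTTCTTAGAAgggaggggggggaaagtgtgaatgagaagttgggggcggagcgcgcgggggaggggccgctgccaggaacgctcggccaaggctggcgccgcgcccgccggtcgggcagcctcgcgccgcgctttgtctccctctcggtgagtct
Socs3 downstream: gccgggcagTTCCAGGAAtcggggggc

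To compare the antibodies, the strongest promoter peak of a gene was given its percentile by −log10 q among all peaks of its own list. *Stat3* stood at the 92.2, 98.1 and 98.1 percentile in PBRM1 replicates 1, 2 and 3 and at 99.1, 99.9 and 99.7 in BRG1. Its groups did not overlap, and the BRG1 mean was 3.41 points higher. For *Il6st* the values were 79.5, 76.4 and 70.7 in PBRM1 and 89.8, 83.4 and 88.7 in BRG1, a difference of 11.8 points without overlap. *Il11ra1* had 50.7, 54.7 and 61.3 in PBRM1 and 86.7, 83.6 and 67.8 in BRG1, the largest difference of the 9 genes at 23.8 points, also without overlap. For each of these 3 genes the two-sided exact permutation test gave p = 0.1, the smallest that 3 against 3 replicates can give, and an adjusted p of 0.234 over 11388 genes. *Osmr* (20.1 points), *Lifr* (13.8), *Lif* (11.4), *Jak1* (7.31) and *Socs3* (0.682) had higher BRG1 means with overlapping replicates. The *Lif* difference sets different sites side by side. Its strongest peak was in the first intron in PBRM1 replicates 2 and 3, and at the internal start in PBRM1 replicate 1 and all BRG1 replicates. *Il11* was the 1 gene with a lower BRG1 mean, by −5.98 points (50.4 ± 15.1 in PBRM1 and 44.4 ± 13.5 in BRG1, SD, n = 3 each, exact p = 0.8).

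These 3 of 9 genes compare with 40.0% of the 11388 genes whose percentile was higher in every BRG1 than in every PBRM1 replicate, and 0 of 9 with the 2.76% that were lower in every BRG1 replicate. Over all genes tested the median difference was 8.77 points and 84.9% had the higher mean in BRG1, while the median of the 9 genes was 11.4 points. No gene had an unadjusted p below 0.05, which the design does not allow. The lists of the antibodies differ in length. Among the 20000 strongest peaks of each list, the median difference over all genes was 0.45 points and 13.2% were higher in every BRG1 replicate. Of the 6 signaling genes that could then be compared, *Stat3* alone was. Without BRG1 replicate 3, 5 of 9 genes were higher in every remaining BRG1 replicate, *Osmr* and *Jak1* being added, against 47.1% of all genes. Against the medians of all genes tested, 74.7 to 79.1 in the PBRM1 lists and 85.1 to 86.6 in the BRG1 lists, *Stat3*, *Jak1* and *Socs3* were above in all 6 replicates, and *Lif*, *Lifr*, *Il11* and *Osmr* were below in all 6.

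**Figure D3:**
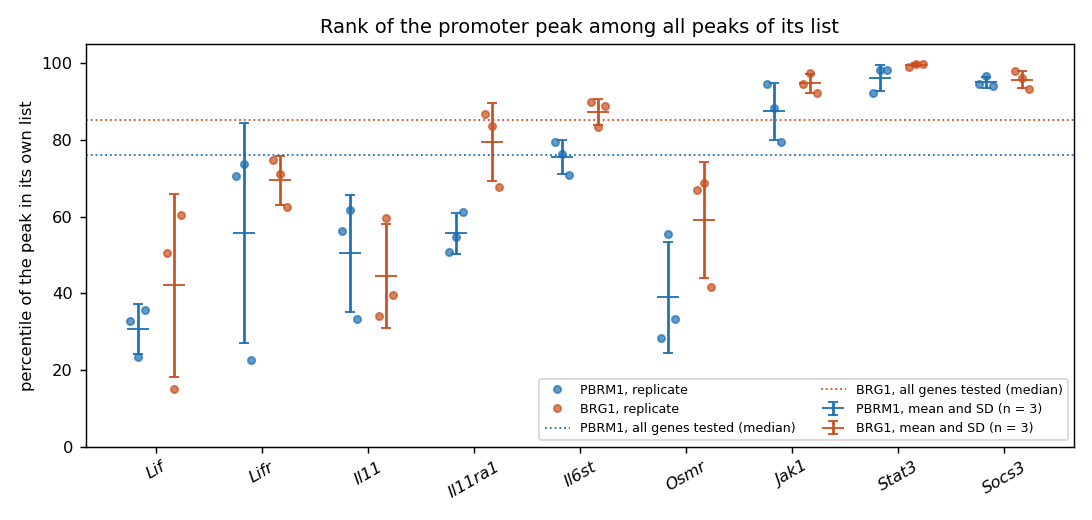
Percentile by −log10 q (y axis) of the strongest promoter peak among all peaks of its own list for the 9 genes (x axis) with a promoter peak in all 6 replicates, as points for each replicate with mean and SD (n = 3). Dotted lines are the middle of the 3 list medians over the 11388 genes tested, 76.1 for PBRM1 and 85.3 for BRG1, and *Stat3*, *Jak1* and *Socs3* lie above them. The *Lif* points come from different sites, the first intron and the internal start.

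Inside the genes, 18 gene-body peaks were called in the pooled PBRM1 list and 25 in the pooled BRG1 list. Per 100 kb of gene this is 3.69 and 5.13 peaks, against 1.69 and 2.91 over all protein-coding genes. *Il11ra1* held 7 of the peaks in each list, and without it the densities were 2.63 and 4.31 from 11 and 18 peaks. Of these remaining peaks *Jak1* alone held 5 for PBRM1 and 10 for BRG1. In the single replicates the density without *Il11ra1* was above that of all genes in the 3 PBRM1 replicates and BRG1 replicate 1, with 0.479 against 0.409 in PBRM1 replicate 1, and below it in BRG1 replicates 2 (0.718 against 0.905) and 3 (0.479 against 0.943). Of the 32 gene-body sites, 4 were called in all 6 replicates. All 4 lie in the long *Il11ra1* span and at a TSS of another gene, among them *Rpp25l* and *Dctn3*. The *Dctn3* site, for the dynactin subunit, had fold enrichments of 10.8, 7.92 and 5.99 for PBRM1 and 8.92, 10.4 and 9.86 for BRG1, above those of the *Il11ra1* promoter in every replicate.

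Among the remaining gene-body sites, the best supported was in a *Jak1* intron, 30770 bp downstream of a start, at chr4:101234199-101234678. PBRM1 replicates had 5.55, 3.50 and 3.85 there, BRG1 replicates 1 and 2 had 5.92 and 5.18, and BRG1 replicate 3 had no peak. *Jak1* had 11 gene-body sites in all, none of them in all 6 replicates, and *Il6*, *Il11* and *Socs3* had none. Of the 18 and 25 pooled gene-body peaks, 5 in each list overlapped a peak in each replicate of the same antibody.

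Outside the genes, intergenic pooled peaks within 50 kb were assigned to a gene when its TSS was the nearest of all protein-coding genes. *Socs3* had 9 such PBRM1 peaks and 7 BRG1 peaks, and *Lif* had 6 and 8. Over all protein-coding genes the mean was 0.427 for PBRM1 and 0.689 for BRG1, and 76.5% and 70.1% of the genes had none. At least as many as *Socs3* were found for 0.0866% of genes in the PBRM1 list and 1.06% in the BRG1 list, and at least as many as *Lif* for 0.565% and 0.588%. The counts were not scaled to the intergenic length around each gene. *Il6*, *Il11*, *Il11ra1* and *Jak1* had none in either list.

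The *Socs3* peaks lay downstream of the gene, apart from a PBRM1 peak at −7997 bp that no replicate had. At 4 positions the pooled peaks of both antibodies were supported by all 3 replicates of their antibody. The BRG1 summits there were 5606, 19245, 29397 and 36841 bp downstream of the nearest *Socs3* start. At 19245 bp the pooled fold enrichment was 8.01 for BRG1 and, with a summit at 19495 bp, 6.70 for PBRM1. The *Socs3* promoter itself had 7.80 and 6.93, so that by this ratio the distant BRG1 peak was slightly the higher, whereas its −log10 q of 85.1 was under the 137 of the promoter.

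At *Lif* the flanking peaks also lay downstream of the gene, apart from a BRG1 peak at −5977 bp, and some exceeded the promoter peaks. The pooled BRG1 peak 16792 bp downstream had a fold enrichment of 7.38 and the PBRM1 peak 41607 bp downstream had 6.57, each called in all 3 replicates of its antibody. The strongest promoter peaks of *Lif* had 4.31 for BRG1 and 4.41 for PBRM1. At *Osmr* a BRG1 peak at −34887 bp, found in all 3 BRG1 replicates, had 9.91, against 6.50 at the promoter. PBRM1 had 4.72 at that place, from a pooled peak that 1 of 3 PBRM1 replicates also had.

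**Figure D4:**
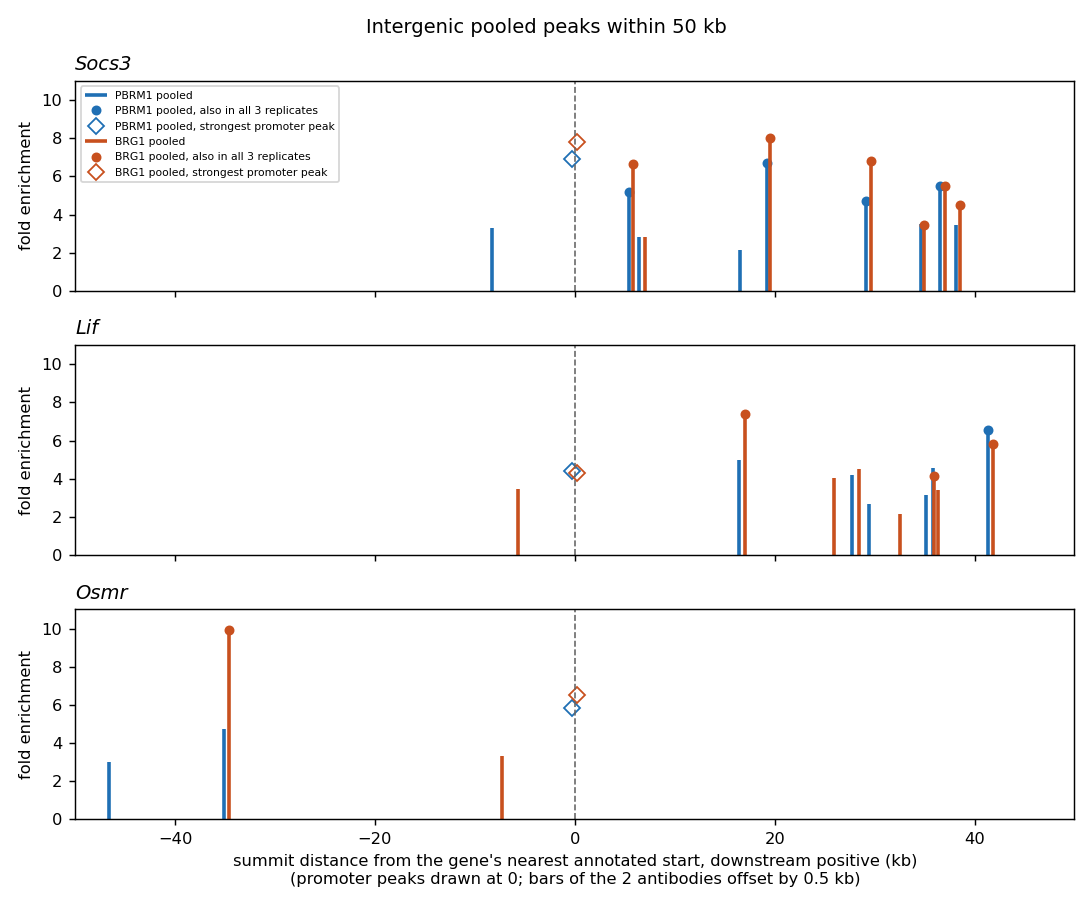
Pooled fold enrichment (ratio, y axis) of intergenic peaks assigned to *Socs3*, *Lif* and *Osmr* against the summit distance in kb from the nearest annotated start (x axis, downstream positive), PBRM1 blue and BRG1 orange, with dots where all 3 replicates of the antibody had a peak and diamonds for the strongest promoter peak. *Socs3* peaks gather downstream up to 38360 bp, and the *Osmr* BRG1 peak at −34887 bp stands above its promoter peak.

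Short strings of transcription factor motifs were counted within 250 bp on either side of the strongest pooled promoter summit of each gene, on both strands. The STAT string TTCNNNGAA was present for 1 of 10 genes, *Socs3*, with either antibody, against 9.67% of PBRM1 and 9.97% of BRG1 promoter peaks. Over whole peaks *Jak1* was added to it. The AP-1 string TGANTCA was present for *Osmr* alone, against 9.39% and 9.81%. The CREB string TGACGTCA was present for *Jak1* and *Stat3* at the PBRM1 summits and for *Jak1* at the BRG1 summits, against 2.68% and 2.46%. The GC box GGGCGG was present for 8 and 9 genes (65.7% and 61.4%) and CCAAT for 7 genes with each antibody (41.6% and 42.0%). The steroid receptor string AGAACA was present for *Il6* and *Stat3* with each antibody (19.8% and 21.5%). Within 100 bp of the summit fewer genes had a match. CCAAT was then present for 2 (PBRM1) and 4 (BRG1) genes, against 18.3% and 22.7% of promoter peaks, and CREB for 0 with either antibody. STAT and AP-1 were present for 0 genes at the PBRM1 summits and for the same gene as before at the BRG1 summits, and AGAACA for 1 and 0. A match describes letters in a window and does not mark a bound site.

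Of 32 further genes of the pathway, 20 (62.5%) had a promoter peak in all 6 replicates, against the 51.9% of all protein-coding genes, and 3 had none in any replicate. All 7 inhibitors and adaptors had one in all 6 replicates (*Socs1*, *Socs2*, *Cish*, *Pias1*, *Pias3*, *Ptpn11* and *Gab1*), as did 7 of 8 targets (*Bcl3*, *Junb*, *Cebpb*, *Cebpd*, *Pim1*, *Myc* and *Bcl2l1*) and 4 of 5 kinases and STATs (among them *Tyk2*, *Stat5a* and *Stat5b*). Among the ligands only *Clcf1*, 1 of 7, had one in all 6, and among the receptors *Il6ra*, 1 of 5, the chain for interleukin-6. *Il27* and *Ebi3*, which together encode interleukin-27, and *Il11ra2*, the near copy of *Il11ra1*, had none in any replicate, and *Il11ra2* had none in the pooled lists either. Only pairs with a mapping quality of at least 20 were kept, and whether reads can be placed at *Il11ra2* was not tested. *Pias1*, an inhibitor of STAT binding to DNA, had the highest pooled fold enrichments of the 32 genes, 9.79 for PBRM1 and 13.4 for BRG1. *Osm*, the gene of oncostatin M and the neighbour of *Lif*, had no promoter peak in a PBRM1 replicate and one in all 3 BRG1 replicates, with pooled fold enrichments of 2.64 and 4.94.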

How the data were processed

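ChIC-Seq peak lists of 3 PBRM1 and 3 BRG1 replicates and of the pooled fragments of each antibody were analysed, grouped by antibody and replicate from the labels. According to the methods and labels, the authors trimmed reads with cutadapt, aligned them with Bowtie2 to mm10 (GRCm38.p5), kept pairs with a mapping quality of at least 20, removed duplicates, and called peaks with MACS 2.2.7.1. Per the file headers, peaks were called without a control at a q-value of 0.05 with a regional background of 10000 bp. For each peak the deposited files give a pileup signal, a fold enrichment ratio and a −log10 q-value. Depth was 8868777 to 16505239 fragments per replicate and 38144108 (PBRM1) or 37842839 (BRG1) in the pooled lists, which reach weaker sites than the replicates.

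Promoter peaks lie within 2000 bp of a TSS of GENCODE vM21, all transcripts, with 1 bp of overlap counting. Peaks of the 8 lists that overlap were joined into sites. The percentile of a promoter peak in its own list was compared by a two-sided exact permutation test of 3 against 3 replicates over all protein-coding genes with a promoter peak in all 6 lists, with Benjamini-Hochberg adjustment. The labels give the replicates as separate samples without naming separate cultures or mice. The authors' legend to genome tracks that include these libraries calls the 3 replicates biological. Each p-value is the share of all relabelings of these samples that gave a mean difference at least as large in size. How much of the spread between the samples is technical was not tested. Sequences were read from RefSeq GRCm38.p6, and RefSeq starts from its annotation, leaving out untranslated regions of GENCODE and curated RefSeq beyond 30 bases. No site had a second match of at least 100 bp and 95% identity in the primary assembly (blastn 2.17.0). Computation was in Python 3.11.15 with scipy 1.17.1, pandas 2.3.3 and numpy 2.4.6, figures were drawn in matplotlib 3.10.9, and the interval and permutation steps were tested on simulated data. All 10 genes are named, and of the 32 further genes those with a promoter peak in all 6 replicates or in none, *Osm* being added after its values were seen, and single genes of these and of the marker lists are not reported here. The genes, lists and alternatives were chosen with earlier results of these data known. Alternatives were other distances, transcript sets, thresholds, rank measures and windows, each replicate left out, and a replicate block.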

Additional observations from a re-analysis of the deposited data

How the results depend on the processing

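With a −log10 q of at least 5, 5 genes had a promoter peak in all 3 PBRM1 replicates and 5 in all 6. Over all other distances, transcript sets, thresholds and replicates left out, these counts and those of BRG1 and the pooled lists were between 7 and 10. The gene-body count of 18 (PBRM1) and 25 (BRG1) fell to 11 and 11 with a −log10 q of at least 5, to 8 and 10 with a fold enrichment of at least 4, to 5 and 5 when each replicate of the antibody had to have the peak, and to 5 to 6 (PBRM1) and 5 to 7 (BRG1) when that was asked of the remaining replicates with 1 left out. Without *Il11ra1*, an alternative chosen after seeing the data, PBRM1 had 11. The number of genes higher in every BRG1 replicate, 3 as reported, was 1 by the percentile of fold enrichment (32.5% of all genes). By fold enrichment itself, on a log2 scale, it was 2 (41.0%), and among the 20000 strongest peaks it was 1 (13.2%). With a replicate left out it was 3 to 5 (43.7% to 52.5%). With the replicate block, which asks for a higher BRG1 value in each pair of equal numbers, it was 5 (exact sign-flip test, smallest p 0.25), against 52.9% of all genes. Deviations of equally numbered libraries correlated at −0.0204, −0.00188 and 0.00305 across genes. A shared cell preparation need not show in such ranks, so whether equal numbers pair the samples was not tested. The percentile difference changed sign for *Il11* by pileup (3.84), for *Socs3* among promoter peaks (−0.845), among the 20000 strongest peaks (−2.31) and without BRG1 replicate 1 (−0.378), and for *Lifr* among the 20000 strongest peaks (−7.18) and without PBRM1 replicate 3 (−2.75). With a replicate left out, *Lifr* ranged from −2.75 to 22.8 (highest without PBRM1 replicate 2) and *Socs3* from −0.378 to 1.90 (highest without BRG1 replicate 3). *Lif* ranged from 2.202 (without BRG1 replicate 3) to 24.9 (without BRG1 replicate 2), *Il11* from −14.6 (without PBRM1 replicate 3) to −0.341 (without PBRM1 replicate 2), *Jak1* from 3.37 (without PBRM1 replicate 3) to 10.8 (without PBRM1 replicate 1) and *Stat3* from 1.44 (without PBRM1 replicate 1) to 4.40 (without PBRM1 replicate 2). No gene passed the test under any setting. The cause of these changes was not tested.

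The lists were called without a control library, and no IgG list was analysed here. A missing peak means that none was called at the depth of that library.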
